A study of Mus musculus with 4 samples.

Results

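The genes described here are 10 transcription factors of the lung epithelium: Nkx2-1, Cebpa, Foxa1, Foxa2, Gata6, Klf5, Elf3, Sox9, Cebpd and Tfcp2l1. They were chosen by name, and each had 1 row among the 31053 genes counted in both libraries. RNA molecules and open chromatin were counted in the same nuclei (10x multiome) of reporter-labelled cells sorted from the lungs of male mice. All mice had received bleomycin 8 days earlier, which damages the lung lining. The CKO genotype was SftpcCreERT2; Rosa26mTmG; IPF/F, in which IP is the prostaglandin I2 receptor encoded by Ptgir, and the control genotype was SftpcCreERT2; Rosa26mTmG. Both genotypes therefore carried the same inducible Cre at the surfactant protein C gene, the same membrane reporter that turns green after recombination, and the same injury, so there was no uninjured group. Each genotype had 1 joint library, so differences between genotypes could not be tested against replicates. Cre driven by Sftpc marks AT2 cells and what descends from them, but other cells passed the sort too. The number of mice in a library and their age are not given in the sources used here.

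Alveolar type 2 (AT2) cells make surfactant. After injury they can turn, through transitional cells, into alveolar type 1 (AT1) cells, the thin cells of gas exchange. The identity of these cells is kept by a small set of factors that bind one another's regulatory regions. NKX2-1 is a homeodomain protein needed for lung epithelial fate and binds surfactant gene promoters. FOXA1, FOXA2 and GATA6 can bind closed chromatin, C/EBP proteins are known for the mature AT2 program, and KLF5 and the ETS-family protein ELF3 are epithelial factors tied to lineage choice and to injury. TFCP2L1 belongs to the CP2 and grainyhead family, and SOX9 marks the tip progenitors of the embryonic lung.

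By the gene starts in the files (GRCm38), Nkx2-1 and Foxa1 lie on chromosome 12 (from 56535106 and 57546121), Elf3 and Tfcp2l1 on chromosome 1 (from 135258438 and 118627946), Foxa2 on 2 (148045948), Cebpa on 7 (35119293), Sox9 on 11 (112782224), Klf5 on 14 (99298691), Cebpd on 16 (15887286, inside Spidr) and Gata6 on 18 (11052651, beside Gata6os).

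There were 30818808 UMIs (unique molecular identifiers, each a counted RNA molecule) over 10925 barcodes of the CKO-labelled library, and 48378328 over 13569 barcodes of the control library. After filtering, 3883 and 2185 nuclei were kept in the CKO-labelled library and the control library, with median UMI counts of 2402 and 2093. Clusters were named from marker lists that did not hold the 10 factors. Alveolar nuclei numbered 2333 in the CKO-labelled library and 2062 in the control library. Of these, AT1-like nuclei made up 18.1% and 7.91%, transitional-like nuclei 29.0% and 16.3%, and AT2-like nuclei 52.9% and 75.8%. The summed level of the 14 AT2 markers was 18009 CPM (UMIs per 1000000 nuclear-encoded UMIs of the nuclei summed) in AT2-like nuclei of the CKO-labelled library and 12057 CPM in those of the control library, and at most 7179 CPM in the other alveolar classes. The transitional-like name is the weakest: its 18 markers summed to more in AT1-like nuclei (6445 CPM in the CKO-labelled library, 5519 in control) than in transitional-like nuclei (5212 and 4811), and none was among the 10 leading genes of that cluster. The libraries filled different AT2-like clusters, with 1184 nuclei of the CKO-labelled library and 54 of the control library in the first, 24 and 903 in the second, and 27 and 606 in a shallow one (median 1120 UMIs in control). Despite the sort, 1311 and 103 nuclei were leukocytes. Markers of leukocytes other than Lyz2, which AT2 cells also express, summed to 269.9 CPM in alveolar nuclei of the CKO-labelled library (43 of 46 markers detected) and 93.4 CPM in those of the control library (36 of 46). Ptgir had 1 UMI in alveolar nuclei of the CKO-labelled library and 0 in those of the control library, too few to check the label, so directions between the libraries rest on the label alone. The libraries shared 193 barcodes, 17 of them among kept nuclei. All intervals are 95% intervals and cover counting error only.

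The first comparison asks whether the 10 factors were higher in alveolar than in leukocyte nuclei, and it leaves out other classes. In the CKO-labelled library Cebpd was higher in endothelial-like (120.4 CPM) and fibroblast-like nuclei (114.6) than in alveolar nuclei (102.5). Foxa1, Foxa2 and Elf3 were higher in ciliated-like nuclei (67.5, 73.1 and 36.6 CPM) than in alveolar nuclei (34.5, 48.2 and 29.8). Of these, only the Foxa1 intervals lay apart. Nkx2-1, Cebpa, Gata6, Klf5 and Tfcp2l1 were highest in alveolar nuclei among these classes. In RNA, all 9 factors with at least 20 UMIs were higher in alveolar than in leukocyte nuclei of the CKO-labelled library, with a median log2 ratio of 0.81, against 0.02 for all genes tested. In the control library 8 of 9 were higher, with a median of 0.66, against -0.01 for all genes. Nkx2-1 had 358.9 CPM in alveolar nuclei and 152.9 CPM in leukocyte nuclei of the CKO-labelled library (log2 ratio 1.23, interval 1.08 to 1.38), and 257 and 177 CPM in the control library (0.54, 0.16 to 0.94). Cebpa, which myeloid cells also use, was the 1 lower factor of the control library, with 29.0 and 25.9 CPM in the CKO-labelled library and 15.7 and 21.0 CPM in the control library (log2 ratio -0.42, -1.52 to 0.93, from 7 leukocyte UMIs). At least 2-fold higher in alveolar nuclei were 4 of 9 factors in the CKO-labelled library (Nkx2-1, Foxa1, Gata6 and Tfcp2l1), where 8.4% of all genes were, and 2 of 9 in the control library (Klf5 and Tfcp2l1), where 10.6% were. None was at least 2-fold lower, where 13.7% and 14.4% of all genes were. Ratios of this size were also seen for the surfactant genes Sftpa1, Sftpb, Sftpc and Sftpd, with medians of 0.74 and 0.32, although leukocytes are not known to make surfactant. Sftpb had a UMI in 80.3% of leukocyte nuclei of the CKO-labelled library and in 83.5% of those of the control library. RNA of the 10 factors counted in leukocyte nuclei is therefore not read as expression there. Nkx2-1 had a UMI in 53.2% of alveolar and 20.8% of leukocyte nuclei of the CKO-labelled library (median depths 2668 and 1751 UMIs), and in 29.2% and 11.7% once each nucleus was thinned to 1000 UMIs.

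Most promoters of these genes were more open in alveolar than in leukocyte nuclei. A promoter region here is a peak within 1 kb of the gene start, and levels are given as peak CPM (counts per 1000000 peak counts of the nuclei summed). In the CKO-labelled library 10 of the 11 promoter regions had at least 50 counts, and their median log2 ratio of alveolar over leukocyte nuclei was 1.32, against 0.0005 for all promoter regions. Of these, 7 were at least 2-fold higher in alveolar nuclei, where 21.1% of all promoter regions were, and 0 at least 2-fold lower, where 9.25% were. In the control library, 11 of 12 regions had 50 counts, the median was 1.21, against -0.06 for all, and 7 were at least 2-fold higher, where 16.3% were, and 0 lower, where 8.68% were. The Elf3 promoter had 51.3 peak CPM in alveolar and 15.1 in leukocyte nuclei of the CKO-labelled library (log2 ratio 1.77, 1.44 to 2.11), and 56.3 and 6.61 in the control library (3.09, 1.54 to 5.37). The Nkx2-1 promoter had 26.9 and 8.86 in the CKO-labelled library (1.6, 1.17 to 2.06), and 32.2 against 0 counts in the control library, whose leukocytes had only 453974 peak counts in all. For medians and 2-fold counts, a count of 0 was set to 3, for these and for all regions. Foxa1 (47.7 and 17.2), Gata6 (44.8 and 17.7), Foxa2 (45.7 and 18.4) and Tfcp2l1 (38.2 and 17.7) also differed by more than 2-fold in the CKO-labelled library. In that library the promoters of the C/EBP genes and of Klf5 did not. Cebpa had 49.2 and 38.8 (0.34, 0.11 to 0.57), though 57.2 and 26.4 in the control library (1.11, 0.30 to 2.08, from 12 leukocyte counts). Cebpd, an early inflammatory and glucocorticoid response gene, had 45.1 and 41.3 (0.13, -0.10 to 0.36). Within the leukocytes of the CKO-labelled library, the Cebpa promoter had 54.4 peak CPM in macrophage and monocyte-like, 41.4 in neutrophil-like and 20.9 in T and NK-like nuclei, and the Cebpd promoter 44.7, 52.7 and 25.6. Klf5 had 67.7 peak CPM in alveolar and also 67.7 in neutrophil-like nuclei, against 26.4 in macrophage and monocyte-like and 34.4 in T and NK-like nuclei.

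**Figure D1:**
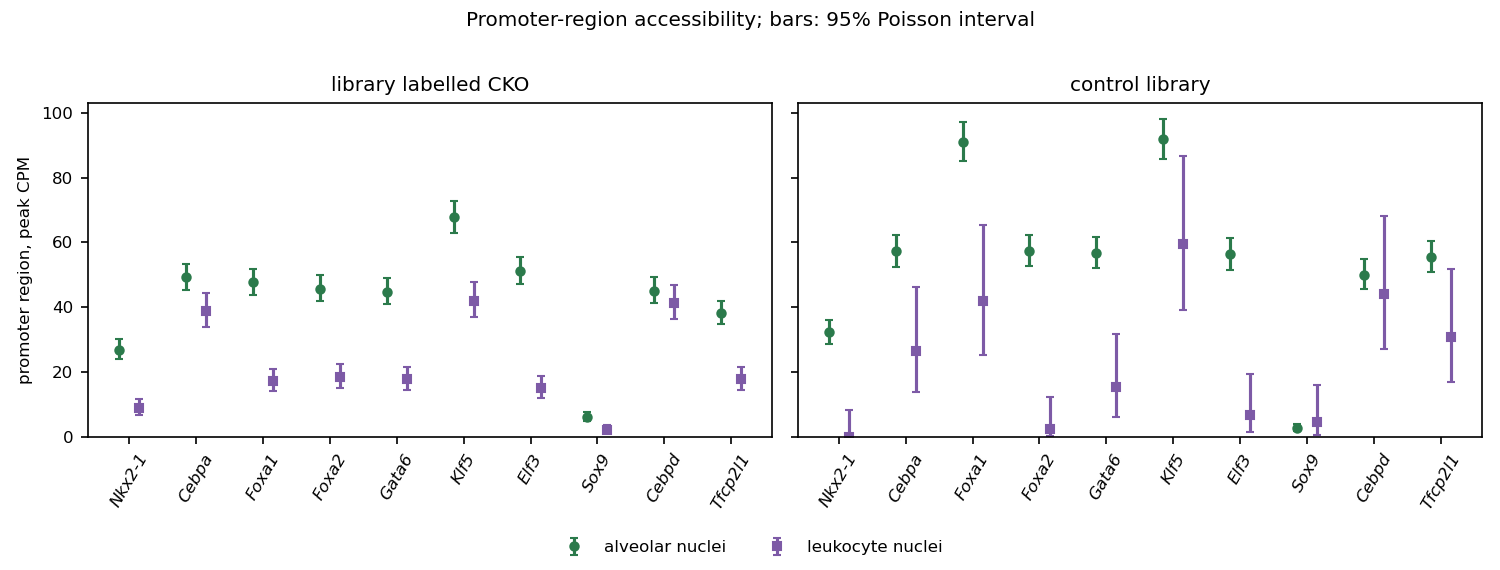
Promoter-region level in peak CPM (vertical axis) of each factor in alveolar nuclei (circles) and leukocyte nuclei (squares), in the CKO-labelled library (left) and the control library (right), summed where a gene had more than 1 promoter region; bars are 95% Poisson intervals. In the CKO-labelled library, Elf3 stood at 51.3 in alveolar and 15.1 in leukocyte nuclei, while Cebpd stood at 45.1 and 41.3.

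Promoter windows of 300 bases (250 before and 50 after the start) were read from RefSeq for 6 of the 10 factors (GRCm38.p6, 8 windows). Shown are the 4 windows that lay wholly inside a promoter peak of both libraries, since the promoter peaks counted above hold them. Capitals mark matches to 1 of 6 short motifs, each searched on both strands. The sequences are written 5′ to 3′ in the direction of the gene. Elf3 is chr1:135258423-135258722 on the minus strand, Tfcp2l1 chr1:118627695-118627994 on the plus strand, the second of 3 Foxa2 starts chr2:148045899-148046198 on the minus strand, and Cebpa chr7:35119043-35119342 on the plus strand.
Elf3: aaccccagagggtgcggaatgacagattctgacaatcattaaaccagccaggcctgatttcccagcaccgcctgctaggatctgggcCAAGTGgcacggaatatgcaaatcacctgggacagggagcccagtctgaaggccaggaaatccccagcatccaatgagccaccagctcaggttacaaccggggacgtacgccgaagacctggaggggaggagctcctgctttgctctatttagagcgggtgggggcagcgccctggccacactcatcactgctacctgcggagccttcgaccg
Tfcp2l1: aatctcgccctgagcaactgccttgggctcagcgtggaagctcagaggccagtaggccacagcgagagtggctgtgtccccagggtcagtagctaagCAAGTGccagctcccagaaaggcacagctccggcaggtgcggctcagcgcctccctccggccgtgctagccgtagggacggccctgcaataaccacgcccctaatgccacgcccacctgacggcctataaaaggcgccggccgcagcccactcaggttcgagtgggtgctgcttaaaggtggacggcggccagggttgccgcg
Foxa2: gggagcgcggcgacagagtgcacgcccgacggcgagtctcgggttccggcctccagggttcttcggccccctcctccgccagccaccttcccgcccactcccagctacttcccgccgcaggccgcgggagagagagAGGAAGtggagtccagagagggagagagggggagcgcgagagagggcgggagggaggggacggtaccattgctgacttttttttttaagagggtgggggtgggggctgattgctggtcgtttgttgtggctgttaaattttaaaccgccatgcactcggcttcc
Cebpa: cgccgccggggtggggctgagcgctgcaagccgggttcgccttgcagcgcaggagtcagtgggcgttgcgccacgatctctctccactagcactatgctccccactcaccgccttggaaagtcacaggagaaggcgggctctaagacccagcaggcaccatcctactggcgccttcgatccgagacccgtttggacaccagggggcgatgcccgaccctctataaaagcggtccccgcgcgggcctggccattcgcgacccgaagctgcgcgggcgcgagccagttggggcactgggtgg
The NKX2-1 letters (CAAGTG) were found in the Elf3 window (position 88, counted from the window's first base) and in the Tfcp2l1 window (position 98), and 13.6% of all 32851 windows hold them. The ETS letters (AGGAAG) were found in this Foxa2 window (position 137), and 35.4% of all windows hold them. The C/EBP letters (TTGCNNAA), held by 10.8% of all windows, were in none of the 8, including that of Cebpa. Outside the peaks or nearly so, the FOXA letters TGTTTNC (20.5% of all windows) were in the Foxa1 window, the SOX letters ATTGTT (10.7%) and the ETS letters in the Nkx2-1 window, and the GATA letters AGATAA (11.2%) in that of the third Foxa2 start. None of the matches overlapped another. These matches are letters in a window, and binding was not measured.

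Between alveolar states, the factors differed in where they were highest, with 2 highest in AT1-like, 3 in transitional-like and 4 in AT2-like nuclei in each library. These counts go by level alone, and for several factors the intervals of the highest and the next state overlapped. Cebpd differed most. It had 49.6 CPM in AT1-like, 58.9 in transitional-like and 151.5 in AT2-like nuclei of the CKO-labelled library, and 16.8, 33.1 and 67.0 CPM in those of the control library. In both libraries its level in AT2-like nuclei stood above that in the other states beyond the counting intervals, while AT1-like and transitional-like nuclei overlapped. The log2 ratio of AT1-like over AT2-like nuclei was -1.61 (-1.96 to -1.28) in the CKO-labelled library and -1.99 (-3.01 to -1.13) in the control library, and it stayed between -2.25 and -0.84 under every alternative run. Transitional-like over AT2-like nuclei gave -1.36 (-1.70 to -1.04) and -1.02 (-1.63 to -0.46). Leukocyte nuclei of the CKO-labelled library, whose RNA of these genes is not read as expression, had 58.4 CPM of Cebpd. This overlapped its AT1-like and transitional-like levels. Leukocyte levels there also overlapped those of Cebpa (25.9 CPM) in every state. So did Elf3 (22.0 CPM) in AT1-like and AT2-like nuclei and Foxa2 (33.6 CPM) in transitional-like and AT2-like nuclei. What part of the state levels came from RNA outside the nuclei was not tested.

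Tfcp2l1 followed the same order of classes. It had 104.9 CPM in AT1-like, 109 in transitional-like and 169 in AT2-like nuclei of the CKO-labelled library, and 81.1, 82.8 and 128 CPM in those of the control library. Here too the AT2-like level stood apart from the other states in both libraries, with AT1-like over AT2-like ratios of -0.69 (-0.93 to -0.44) and -0.66 (-1.09 to -0.25). Nkx2-1 had 342.6 CPM in AT1-like, 239 in transitional-like and 425 in AT2-like nuclei of the CKO-labelled library, each apart from the next. In the control library it had 220.4, 207 and 272 CPM, with neighbouring intervals that overlapped. Its transitional-like over AT2-like ratio was -0.83 (-1.0 to -0.67) in the CKO-labelled library and -0.39 (-0.63 to -0.16) in the control library. Cebpa had 24.5, 27.3 and 32.1 CPM in AT1-like, transitional-like and AT2-like nuclei of the CKO-labelled library and 6.12, 15.4 and 17.2 CPM in those of the control library, where AT1-like nuclei held only 4 UMIs. Neighbouring states of Cebpa overlapped in both libraries, and the control ratio of -1.49 (-3.40 to -0.08) turned to 0.14 once nuclei were thinned.

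Foxa2 and Gata6 were highest in AT1-like nuclei. In the CKO-labelled library this level stood apart from the next state, while in the control library it overlapped that of transitional-like nuclei. Foxa2 had 67.3 CPM in AT1-like, 43.4 in transitional-like and 40.5 in AT2-like nuclei of the CKO-labelled library, and 47.5, 41.4 and 19.0 CPM in those of the control library. AT1-like over AT2-like ratios were 0.73 (0.36 to 1.10) and 1.32 (0.68 to 1.93). The transitional-like over AT2-like ratio was 0.10 (-0.34 to 0.53) in the CKO-labelled library and 1.13 (0.52 to 1.71) in the control library. The transitional-like level was alike in both libraries, and it was the AT2-like level that differed. AT2-like nuclei of the libraries lay in different clusters. Control nuclei had 36.9 CPM (7 UMIs) in the cluster with most AT2-like nuclei of the CKO-labelled library, and 18.1 and 18.3 CPM in the other AT2-like clusters. Gata6 had 197, 134.5 and 140.4 CPM in AT1-like, transitional-like and AT2-like nuclei of the CKO-labelled library and 156, 118 and 105 CPM in those of the control library. Its AT1-like over AT2-like ratios were 0.49 (0.29 to 0.69) and 0.57 (0.25 to 0.88). Neither gene changed sign in this ratio under any alternative run.

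Klf5, Elf3 and Foxa1 were highest in transitional-like nuclei. This level stood apart from the next state only for Klf5 in the CKO-labelled library and Elf3 in the control library. For Foxa1 it overlapped the next state in both libraries. Klf5 had 166 CPM in AT1-like, 254.8 in transitional-like and 173 in AT2-like nuclei of the CKO-labelled library, and 178, 210.5 and 151 CPM in those of the control library. Transitional-like over AT2-like ratios were 0.56 (0.37 to 0.75) and 0.48 (0.23 to 0.72), whereas AT1-like over AT2-like ratios were near 0 (-0.06, -0.27 to 0.15) in the CKO-labelled library and 0.23 (-0.06 to 0.52) in the control library. Elf3 had 19.9, 39.1 and 30.6 CPM in AT1-like, transitional-like and AT2-like nuclei of the CKO-labelled library and 23.0, 49.7 and 25.8 CPM in those of the control library. Its transitional-like over AT2-like ratio was 0.35 (-0.12 to 0.82) in the CKO-labelled library and 0.95 (0.40 to 1.47) in the control library. Foxa1 had 35.9, 44.0 and 29.1 CPM in the CKO-labelled library and 29.1, 41.4 and 25.8 CPM in the control library, with transitional-like over AT2-like ratios of 0.60 (0.13 to 1.05) and 0.68 (0.09 to 1.24). Sox9 was near the limit of detection, with 4, 4 and 1 UMIs in AT1-like, transitional-like and AT2-like nuclei of the CKO-labelled library and 0, 0 and 2 in those of the control library. The interval of a count of 0 reaches 5.65 CPM in control AT1-like and 4.36 CPM in control transitional-like nuclei.

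**Figure D2:**
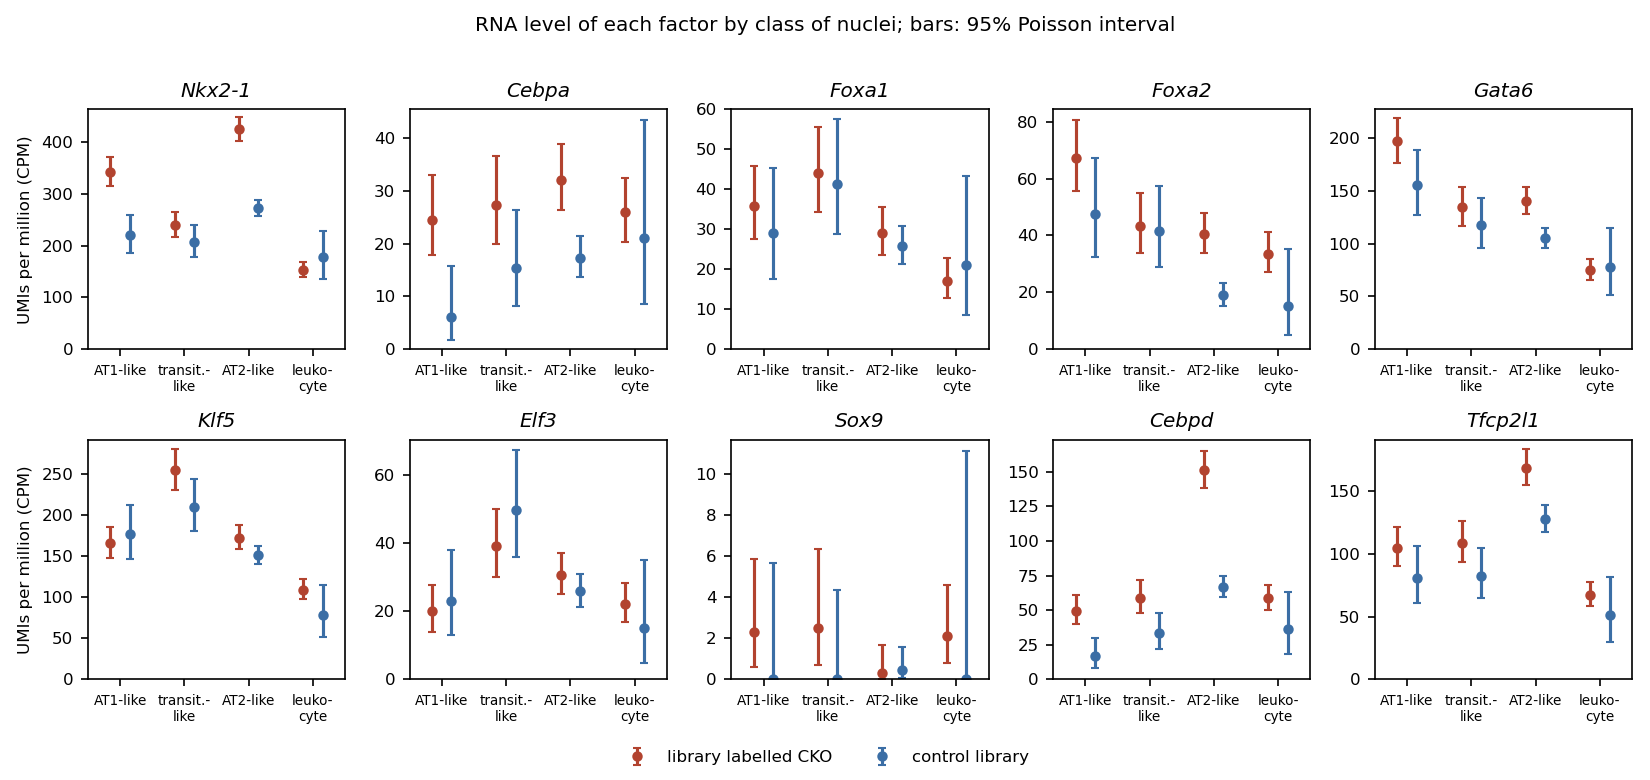
RNA level in CPM (vertical axis, a separate scale for each gene) of the 10 factors in AT1-like, transitional-like, AT2-like and leukocyte nuclei of the CKO-labelled library (red) and the control library (blue); bars are 95% Poisson intervals. Cebpd and Tfcp2l1 peaked in AT2-like nuclei (151.5 and 169 CPM in the CKO-labelled library), Foxa2 and Gata6 in AT1-like nuclei, and Klf5 and Elf3 in transitional-like nuclei. Bars of the highest and the next alveolar state overlapped for Foxa2, Gata6 and Klf5 in the control library and for Elf3 in the CKO-labelled library.

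Few of the 9 factors differed by 2-fold or more between states. The median AT1-like over AT2-like ratio was -0.31 in the CKO-labelled library and -0.17 in the control library, against 0.11 and 0.25 for all genes tested. At least 2-fold higher in AT1-like nuclei were 0 of 9 in the CKO-labelled library and 1 of 9 in the control library (Foxa2), where 9.27% and 16.9% of all genes were. At least 2-fold lower were 1 (Cebpd) and 2 (Cebpd and Cebpa), where 5.15% and 9.76% were. Transitional-like over AT2-like medians were -0.06 and 0.17, against 0.27 and 0.34 for all genes. Foxa2 in the control library was at least 2-fold higher (15.2% of all genes in the CKO-labelled library, 17.9% in control), and Cebpd in both libraries at least 2-fold lower (4.68% and 7.61%). The surfactant genes, by comparison, had median AT1-like over AT2-like ratios of -1.22 and -1.70. AT1-like nuclei were deeper (median 4161 UMIs in the CKO-labelled library and 3620 in control) than AT2-like nuclei (2547 and 1915), and with nuclei thinned to 1000 UMIs included, the Cebpd, Tfcp2l1, Foxa2 and Gata6 ratios of AT1-like over AT2-like nuclei kept their sign.

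**Figure D3:**
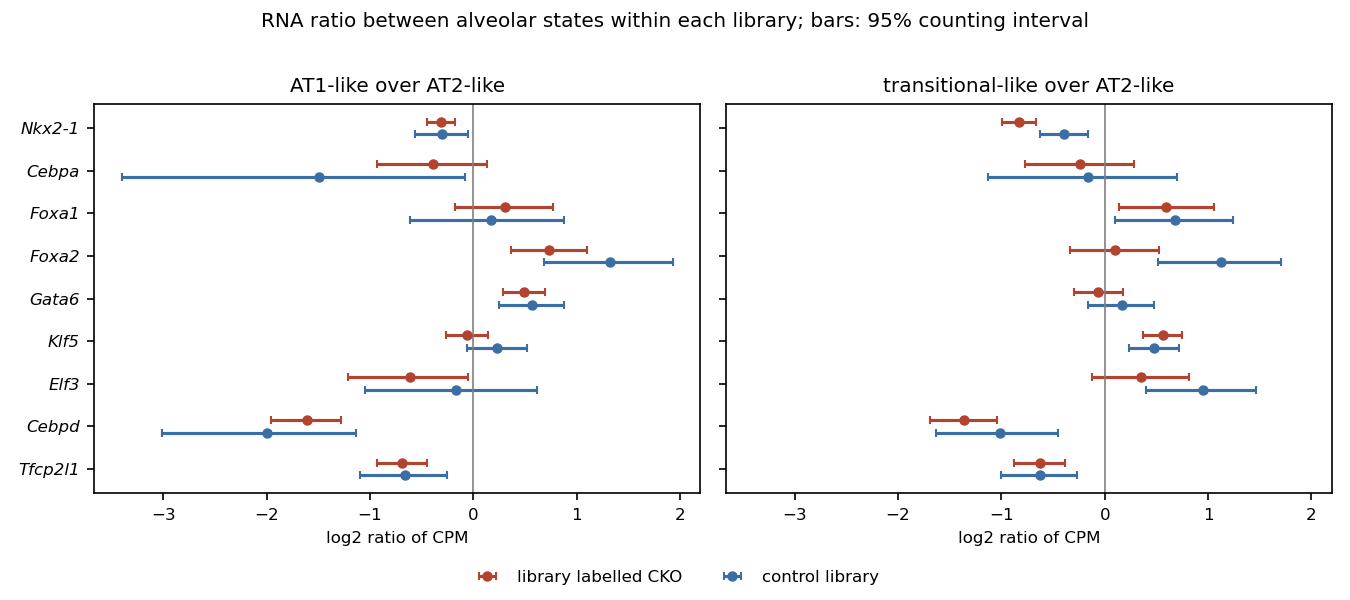
Log2 ratio of CPM (horizontal axis) of 9 factors in AT1-like over AT2-like nuclei (left) and transitional-like over AT2-like nuclei (right), in the CKO-labelled library (red) and the control library (blue); bars are 95% counting intervals and the grey line marks no difference. Cebpd and Tfcp2l1 lie left of the line in both panels and both libraries, and Foxa2 lies at 0.73 and 1.32 in the left panel.

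Accessibility near the genes was then compared between the same states, over 124 peaks within 50 kb of a start in the CKO-labelled library and 130 in the control library. Peaks were called separately in each library, so these values are read within a library. Over the 65 and 60 regions with at least 50 counts, the median AT1-like over AT2-like ratio was -0.08 and -0.16, close to the medians of all regions (-0.08 and -0.16). At least 2-fold higher were 1 and 5 (3.92% and 6.59% of all regions) and at least 2-fold lower 7 and 9 (9.86% and 19.1%). For transitional-like over AT2-like nuclei, 3 and 2 regions were at least 2-fold higher (5.46% and 5.84% of all) and 4 and 9 at least 2-fold lower (11.3% and 17.1%). The direction differed by gene. Tfcp2l1 had 133.6 peak CPM in AT1-like, 139 in transitional-like and 187 in AT2-like nuclei of the CKO-labelled library over its 16 peaks, and 163.5, 185 and 245 over 16 peaks in the control library. Its AT1-like over AT2-like ratios were -0.49 (-0.67 to -0.30) and -0.58 (-0.85 to -0.33), in the direction of its RNA. All 5 single Tfcp2l1 regions with 50 counts in the CKO-labelled library, and all 6 in the control library, were lower in AT1-like nuclei, as most regions were (43.5% and 40.9% of all regions had a ratio above 0). Cebpa regions summed to 260.5, 254 and 324 peak CPM in AT1-like, transitional-like and AT2-like nuclei of the CKO-labelled library and to 281, 256 and 331 in those of the control library, with ratios of -0.31 (-0.45 to -0.18) and -0.24 (-0.44 to -0.04).

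The distal region with the most counts had different directions by gene. In the CKO-labelled library, that of Cebpa (chr7:35130085-35130943, in Gm35724 and Gm51475) had 21.6 peak CPM in AT1-like and 35.7 in AT2-like nuclei (-0.73, -1.21 to -0.27), whereas the matching control peak gave 0.06 (-0.56 to 0.63). That of Tfcp2l1 (chr1:118647766-118648676, in Tfcp2l1 itself) had 26.1 and 29.9 (-0.20, -0.65 to 0.24), and the control library's own, another Tfcp2l1 peak (chr1:118643257-118644130), gave -0.87 (-1.58 to -0.23). That of Elf3 (chr1:135248200-135249105, in no gene extent) had 40.0 and 23.8 (0.75, 0.35 to 1.14), and the control ratio was 0.62 (0.10 to 1.10). That of Klf5 (chr14:99324303-99325195, in no gene extent) had 14.8 and 9.37 (0.66, 0.0026 to 1.30), and the matching control peak 22.0 and 8.44 (1.38, 0.54 to 2.16). Those of Foxa1 (chr12:57575732-57576604, in Ttc6), Foxa2 (chr2:148017871-148018796, in 9030622O22Rik), Cebpd (chr16:15862905-15863728, in Mzt2) and Gata6 (chr18:11015687-11016634) gave 0.24, 0.14, 0.22 and -0.18, with intervals that held 0. In the control library those of Foxa1, Cebpd and Gata6 gave 0.58, -0.17 and 0.04, also with intervals that held 0, while that of Foxa2 was another peak (chr2:148004758-148005698) at 1.4 (0.83 to 1.94). The Sox9 one had 29 alveolar counts in all.

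Around Foxa2 the sums ran the other way from Tfcp2l1, as its RNA did. Distal Foxa2 regions had 149, 131 and 108 peak CPM in AT1-like, transitional-like and AT2-like nuclei of the CKO-labelled library and 134, 131 and 102 in those of the control library. The AT1-like over AT2-like ratios of these regions were 0.46 (0.27 to 0.65) and 0.39 (0.09 to 0.68), while the Foxa2 promoter gave -0.23 (-0.58 to 0.10) and -0.21 (-0.72 to 0.26). A single region 33422 bases downstream of the start, inside the annotated extent of 9030622O22Rik (chr2:148013116-148013979 in the CKO-labelled library), had 23.8 peak CPM in AT1-like and 9.37 in AT2-like nuclei of that library (ratio 1.35, 0.78 to 1.91), and the matching peak of the control library 17.1 and 5.85 (1.55, 0.56 to 2.44). Nkx2-1 had its distal region with the most counts in Sfta3-ps, 11367 bases downstream (chr12:56525096-56525988 in the CKO-labelled library). It had 19.8 peak CPM in AT1-like and 11.9 in AT2-like nuclei of the CKO-labelled library (0.73, 0.16 to 1.29), and 35.4 and 13.9 in those of the control library (1.35, 0.70 to 1.96). The same ratio of Nkx2-1 RNA was negative, at -0.31 in the CKO-labelled library and -0.30 in the control library. The control RNA ratio turned to 0.0654 once nuclei were thinned, so an opposite direction holds under every alternative only in the CKO-labelled library. Among regions with at least 50 counts, the lowest single ratio in the CKO-labelled library was at Cebpa, 24702 bases downstream and in no gene extent (chr7:35143580-35144411), with 3.15 peak CPM in AT1-like and 15.9 in AT2-like nuclei (-2.34, -3.69 to -1.24). The matching control peak gave -0.56 (-1.81 to 0.47). Gata6, Klf5, Foxa1 and Elf3 distal regions gave 0.35, 0.45, 0.23 and -0.11 in the CKO-labelled library and 1.09, 0.43, 0.25 and 0.25 in the control library. The Klf5 promoter gave -0.09 (-0.38 to 0.19) in the CKO-labelled library and -0.82 (-1.28 to -0.39) in the control library, so that all Klf5 regions within 50 kb summed to ratios of 0.15 (-0.06 to 0.35) and -0.34 (-0.67 to -0.03). The Cebpd ratio over its 6 peaks was -0.13 (-0.37 to 0.11) in the CKO-labelled library and -0.61 (-1.06 to -0.19) in the control library. The Sox9 promoter regions had 12.2 peak CPM in AT1-like and 4.13 in AT2-like nuclei of the CKO-labelled library (1.56, 0.72 to 2.39, from 27 and 26 counts), and 12.2 and 1.77 in those of the control library (2.79, 1.44 to 4.09, from 10 and 13 counts). In the CKO-labelled library these regions had 6.08 peak CPM in alveolar nuclei and 63.7 (23 counts) in its 56 fibroblast-like nuclei, where 0 Sox9 UMIs were counted.

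**Figure D4:**
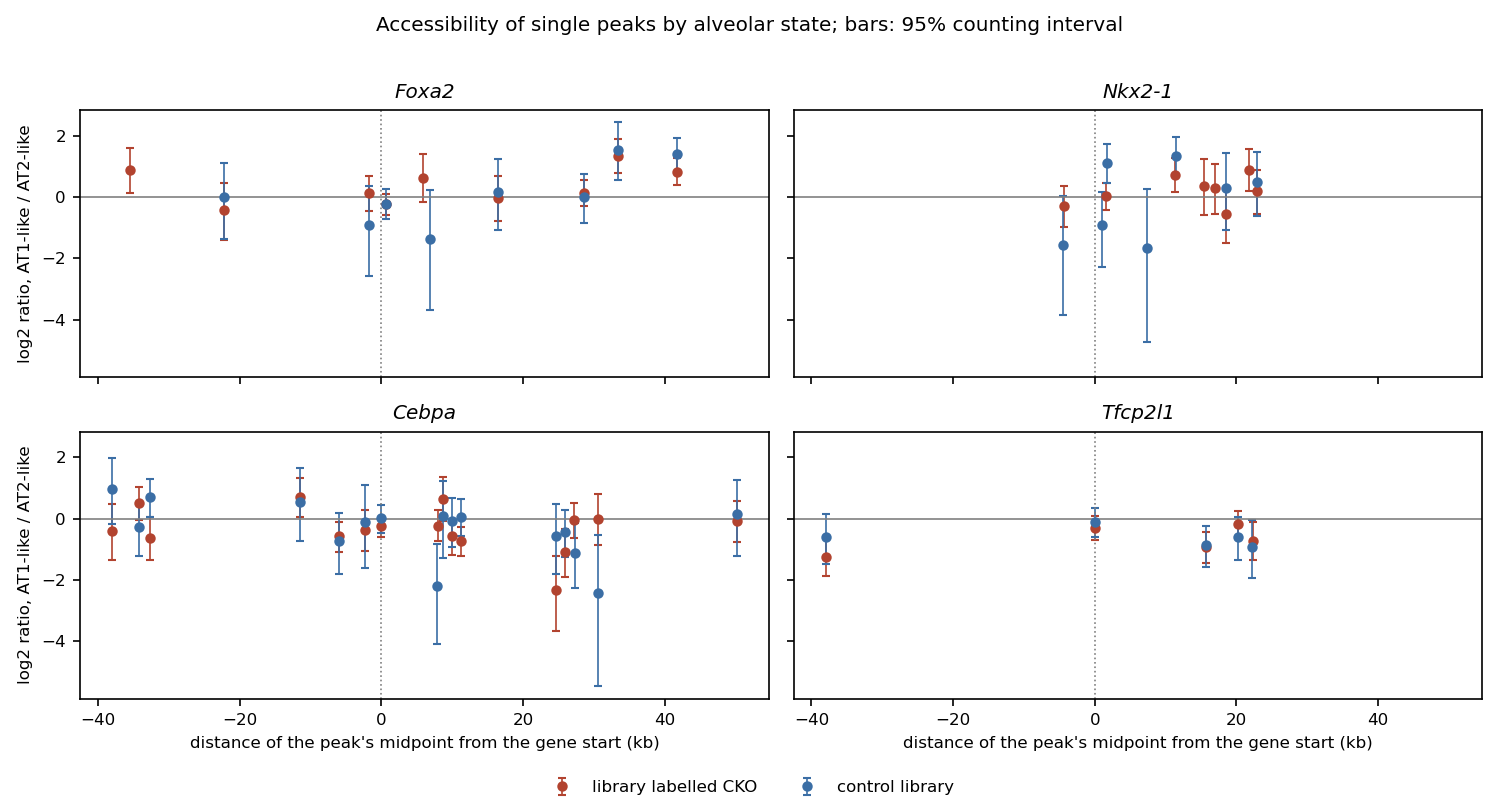
Log2 ratio of peak CPM in AT1-like over AT2-like nuclei (vertical axis) for single peaks with at least 50 counts in these states, by the distance of the peak's midpoint from the gene start in kb along the gene's direction (horizontal axis), for Foxa2, Nkx2-1, Cebpa and Tfcp2l1; bars are 95% counting intervals and the dotted line is the start. Tfcp2l1 points lie below 0 in both libraries (red, CKO-labelled library; blue, control library), and the highest Foxa2 points are more than 30 kb downstream.

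The comparison of genotypes asks how the factors differed in the CKO-labelled library. In alveolar nuclei, all 9 factors with at least 20 UMIs were higher in that library than in control, with a median log2 ratio of 0.45. All genes tested had a median of 0.47, and 78.0% of them were above 0, so the factors as a group lay at the background of this comparison. None of the 9 was at least 2-fold higher, where 17.7% of all genes were, or lower, where 3.06% were. The count of higher factors was 1 with each library clustered alone and 2 without the mitochondrial limit or with no filter but 500 UMIs. Foxa2 had 48.2 CPM in the CKO-labelled library and 25.2 CPM in the control library (0.94, 0.65 to 1.23). Cebpa had 29.0 and 15.7 CPM (0.88, 0.52 to 1.25) and Cebpd 102.5 and 56.8 CPM (0.85, 0.66 to 1.04). Nkx2-1, with 358.9 and 257 CPM (0.48, 0.39 to 0.57), and Gata6, with 153.8 and 113 CPM (0.45, 0.31 to 0.59), lay at the all-gene median. Below it were Foxa1 (34.5 and 28.3 CPM, 0.28), Tfcp2l1 (137.7 and 117 CPM, 0.24), Klf5 (190.7 and 162 CPM, 0.23) and Elf3 (29.8 and 28.8 CPM, 0.05). With median-of-ratios scaling, which sets the typical gene to 0, the median of the 9 was -0.016, and Foxa1, Gata6, Klf5, Elf3 and Tfcp2l1 turned negative while Nkx2-1, Cebpa, Foxa2 and Cebpd stayed above 0. Control classes weighted to the makeup of the CKO-labelled library gave a median of 0.39, with Cebpd at 1.17 and Cebpa at 1.06, both past 2-fold, and Foxa2 at 0.60.

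Within AT1-like nuclei the median was 0.37, against 0.25 for all genes. Cebpa (24.5 CPM in the CKO-labelled library and 6.12 in control, 43 and 4 UMIs, ratio 2.00, 0.54 to 3.94) and Cebpd (49.6 and 16.8 CPM, 87 and 11 UMIs, 1.56, 0.65 to 2.61) were at least 2-fold higher, where 13.3% of all genes were, and none lower, where 3.02% were. Over the alternatives these ranged from 0.80 to 2.15 for Cebpa and from 0.44 to 1.83 for Cebpd, lowest without the limit on mitochondrial UMIs or with no barcode filter but 500 UMIs. Within transitional-like nuclei the median was 0.21, against 0.30 for all genes, and none of the 9 was at least 2-fold higher (12.9% of all genes) or lower (1.58%). Elf3 had its lowest ratio there, with 39.1 CPM in the CKO-labelled library and 49.7 CPM in the control library (-0.35, -0.93 to 0.25). Within AT2-like nuclei the median was 0.41, against 0.44 for all genes, and Cebpd (151.5 and 67.0 CPM, 1.18, 0.97 to 1.39) and Foxa2 (40.5 and 19.0 CPM, 1.10, 0.69 to 1.5) were at least 2-fold higher, where 16.9% of all genes were, and none lower, where 4.65% were. Because the AT2-like nuclei of the libraries lay in different clusters, these ratios also compare clusters. Only 1 AT2-like cluster had more than 50 nuclei of each library. There Cebpd had 154.5 CPM (498 UMIs, 141.3 to 168.7) in the CKO-labelled library and 94.9 CPM (18 UMIs, 56.2 to 150) in control. Foxa2 had 40.3 CPM (130 UMIs, 33.7 to 47.9) and 36.9 CPM (7 UMIs, 14.8 to 76.0). Within this cluster the intervals of the libraries overlapped for both genes, and neither level was 2-fold higher. Cebpd had 70.7 CPM in the larger control AT2-like cluster and 40.7 CPM in the shallow one. In leukocyte nuclei, where RNA of these genes is not read as expression, Cebpd had 58.4 and 36.1 CPM (0.70, -0.15 to 1.68) and Foxa2 96 and 5 UMIs (1.16, -0.11 to 2.82). Foxa2 alone of the 9 was at least 2-fold higher there, where 24.8% of all genes were, and none lower, where 3.2% were. Cebpd is also expressed by neutrophils, whose 8 markers summed to 123 CPM (7 detected, Ly6g at 0) in alveolar nuclei of the CKO-labelled library and 1.49 CPM (5 detected, S100a8, S100a9 and Retnlg at 0) in those of the control library. The part of that RNA in the Cebpd ratio was not tested. Over all alternatives run, the Cebpd ratio in AT2-like nuclei lay between 0.73 and 1.25, and that of Foxa2 between 0.53 and 1.20. They included leaving out nuclei with 2 or more leukocyte-marker UMIs, with Lyz2 counted among the markers and without it. With Lyz2 counted, that filter also removes nuclei for RNA that AT2 cells make themselves. No alternative compared the libraries within a single AT2-like cluster, where the levels are those given above. Club cell markers summed to 738.5 CPM in alveolar nuclei of the CKO-labelled library (7 of 7 detected) and 320.8 CPM in those of the control library (7 of 7), and their part was not tested either.

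**Figure D5:**
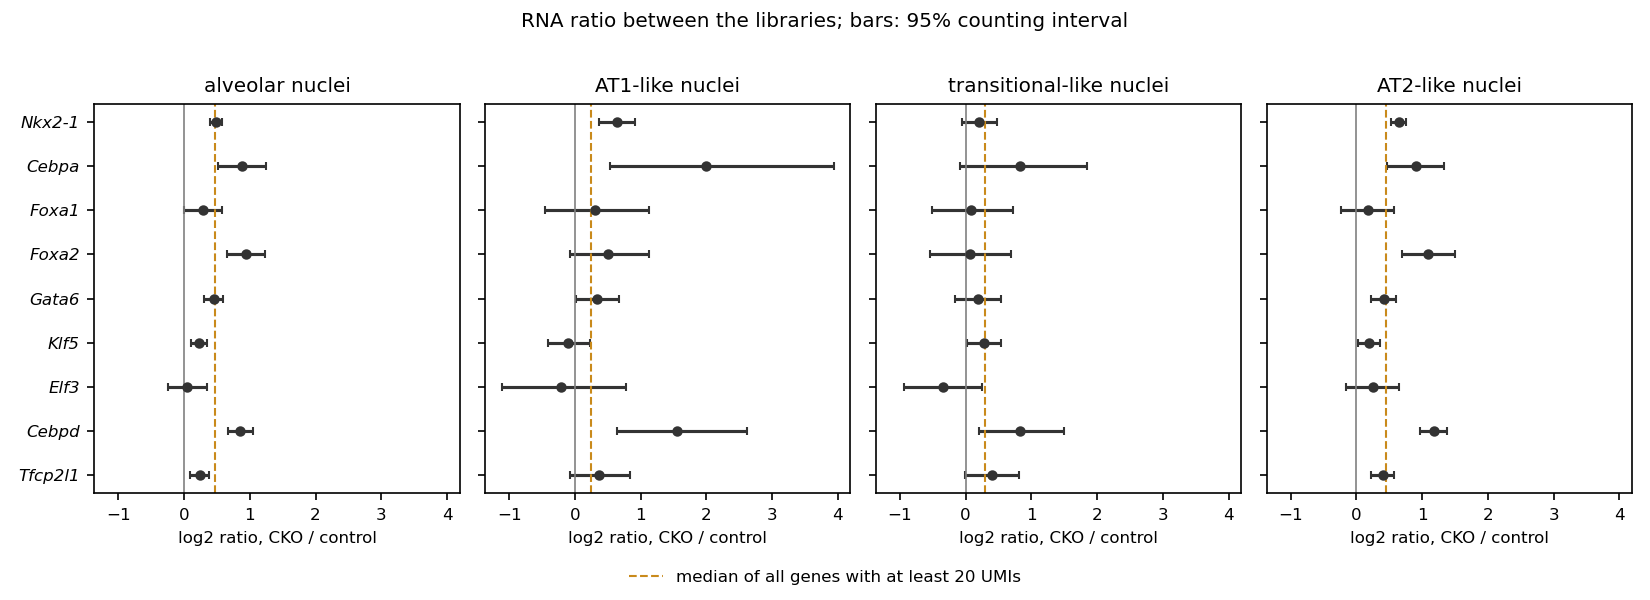
Log2 ratio of CPM, library labelled CKO over control (horizontal axis), of 9 factors in alveolar nuclei and in each alveolar class; bars are 95% counting intervals, the grey line marks no difference and the dashed line the median of all genes with at least 20 UMIs (0.47 in alveolar nuclei). Foxa2, Cebpa and Cebpd lie right of the dashed line in alveolar nuclei and Elf3 lies left of it.

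Promoter levels of the 9 factors with at least 20 UMIs had ratios below 0, with intervals that held 0 for Elf3 and Cebpd. Their RNA ratios in alveolar nuclei lay above 0, with intervals that held 0 for Foxa1 and Elf3. The backgrounds also differed, with a median of 0.47 for all genes and -0.04 for all shared promoter regions. With median-of-ratios scaling, RNA ratios of Foxa1, Gata6, Klf5, Elf3 and Tfcp2l1 were below 0 as well. Those of Nkx2-1, Cebpa, Foxa2 and Cebpd stayed above 0. Of 10 promoter regions with a peak in both libraries, 9 had a lower level (here peak CPM over shared regions only) in alveolar nuclei of the CKO-labelled library than in those of the control library. Of all shared promoter regions, 46.7% had a ratio above 0. The median log2 ratio of the 10 was -0.28, against -0.04 for all 21564 shared promoter regions with at least 50 counts, and none was at least 2-fold higher (4.32% of all) or lower (1.41%). Over promoter and distal shared regions together, 3 of 90 were at least 2-fold higher and 1 lower, where 10.2% and 1.56% of all shared regions were. Tfcp2l1 had 39.6 peak CPM in the CKO-labelled library and 57.0 in the control library (-0.52, -0.71 to -0.34), Foxa1 49.5 and 68.0 (-0.46, -0.63 to -0.29) and Klf5 70.2 and 94.5 (-0.43, -0.57 to -0.29). Foxa2 had 47.5 and 59.0 (-0.31, -0.49 to -0.14) and Cebpa 51.0 and 58.9 (-0.21, -0.38 to -0.03). Nkx2-1 had 27.9 and 33.2 (-0.25, -0.49 to -0.02), from 305 and 306 counts. Its peaks covered 673 bases in the CKO-labelled library and 1151 in the control library, so this ratio does not compare equal widths. For Cebpd (46.8 and 51.5, -0.14, -0.32 to 0.04) and Elf3 (53.2 and 58.0, -0.12, -0.29 to 0.05) the difference was within counting error. Sox9 had 4.76 and 2.71 (0.81, 0.10 to 1.56, from 52 and 25 counts). Its peaks covered 930 bases in the CKO-labelled library and 763 in the control library, so this ratio does not compare equal widths either. Among 80 distal shared regions with at least 50 counts, the median was 0.13, against 0.28 for all, with 3 at least 2-fold higher, where 12.9% of all were, and 1 at least 2-fold lower, where 1.63% were. The 3 were near Nkx2-1 (chr12:56486718-56487540, 6.68 and 2.06 peak CPM, ratio 1.70, and chr12:56514787-56515592, 8.69 and 3.8, ratio 1.19) and Elf3 (chr1:135233668-135234610, 5.12 and 1.74, ratio 1.56). The 1 was near Cebpa (chr7:35144802-35145742), with 12.7 peak CPM in the CKO-labelled library and 26.1 in the control library (-1.04, -1.35 to -0.73).

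Around these members, 34 of 38 other listed factors of lung epithelium had at least 20 UMIs in alveolar nuclei, with a median ratio of the CKO-labelled library over control of 0.15, against 0.47 for all genes, and 2 were at least 2-fold higher, where 17.7% of all genes were, and 2 lower, where 3.06% were. Zbtb16, a zinc-finger gene induced by glucocorticoids, was highest among those with at least 50 UMIs, with 762 CPM in the CKO-labelled library and 195 CPM in the control library (1.97, 1.88 to 2.06). Cebpg (87.0 and 45.4 CPM), a C/EBP relative, was also among the 3 highest. With the same minimum, the lowest were Klf4 (308 and 604 UMIs, -1.12, -1.33 to -0.92), a relative of Klf5, Rora (363 and 709 CPM, -0.97) and Stat3 (420.3 and 670.2 CPM, -0.67), a signal-dependent factor of the interleukin 6 pathway. Below that minimum, and named after their values were seen, Meis1 (22 and 6 UMIs, 1.72) and Tbx2 (8 and 24 UMIs, -1.74) were also past 2-fold. Several close relatives of the 10 factors had their highest level outside the alveolar classes, in classes of the CKO-labelled library: Cebpb in neutrophil-like nuclei (321 CPM), Gata2 in endothelial-like nuclei (130.5 CPM), Klf4 in endothelial-like nuclei (277.6 CPM) and Sox5 in fibroblast-like nuclei (1604 CPM). Among the ELF relatives, Elf1 (559 CPM) and Ehf (156 CPM) were highest in AT2-like nuclei of the control library, and Elf5 (49.2 CPM) in AT2-like nuclei of the CKO-labelled library. Foxa3 had 6 UMIs and Cebpe 0 in all kept nuclei.

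Likeness was taken over the 14 class and library sums with at least 50 nuclei. These include leukocyte classes, where RNA of these factors is not read as expression, and other classes that are not alveolar. The values therefore do not describe alveolar nuclei alone. Klf5 and Elf3 were the most alike pair of factors (Pearson's r = 0.89 of log2(CPM + 10), a description with no test, since the sums share libraries and depth). Nkx2-1 and Tfcp2l1 followed at 0.72 and Foxa1 and Foxa2 at 0.70, while Foxa1 and Cebpd were the least alike (-0.49). Among the genes most like each factor were Clip4, Ptprf and Pip5k1b for Nkx2-1 (0.91 to 0.94), Slc22a23, Snx25 and Cystm1 for Tfcp2l1 (0.92 to 0.95), Atpaf1, Fam83b and Igf2r for Foxa2 (0.92 each), and Hmgcll1, Elfn1 and Eps8l2 for Klf5 (0.91 to 0.93). For Gata6 they were Lrrc41, P3h2 and Plekhh2 (0.88 to 0.90), for Foxa1 Liph, Larp4b and Spata1 (0.88 to 0.90), for Cebpd Tacc1, Xdh and Med8 (0.87 to 0.88), for Elf3 Ttll10, Klf5 and Hook2 (0.87 to 0.91) and for Cebpa P4hb and H3f3b (0.86 each). Sox9, with 17 UMIs in kept nuclei, was too sparse for this.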

How the data were processed

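RNA and open chromatin were counted in the same nuclei, in 1 joint library for each genotype. The authors deposited raw counts (UMIs for genes, peak counts for peaks), made with Cell Ranger ARC 2.0.1, per the file headers. The submitters' processing notes also list Signac 1.6.0, Seurat 4.1.0 and the builds GRCm39 and GRCm38, without roles. Coordinates are 1-based GRCm38, the build whose gene starts the files match. How barcodes were called as cells and whether strand was used in counting are not given in the sources used here, so reads of Gata6 and its antisense partner Gata6os, of Foxa1 and overlapping Ttc6, and of Cebpd and overlapping Spidr may not be told apart. Each table was matched to its genotype by its name.

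Filters for nuclei were under 20% mitochondrial UMIs, 1000 to 100000 peak counts, 300 genes or more, and UMIs between 500 and 25000. No doublet caller was applied. At or over the mitochondrial limit were 4365 barcodes of the library labelled CKO and 8407 of the control library. Both libraries were clustered together with scanpy 1.11.5 (2000 variable genes without the 10 factors and the other factors listed, 30 components, 15 neighbours, Leiden resolution 0.6, leidenalg 0.10.2). The 13 clusters were named from 17 marker lists (score of at least 0.3, at least 3 detected markers). Counts were summed by class and library. Log2 ratios carry exact conditional-binomial intervals, levels Poisson intervals, and shares Clopper-Pearson intervals, at 95%. Genes needed 20 UMIs over the sums compared and regions 50 counts. In medians and counts past 2-fold, a sum of 0 was set to 3 counts. With 1 library per genotype no p-value is given. The interval script was tested on simulated data. The members and lists were chosen with earlier results of these data known. Named were all 10 factors, the 3 highest and 3 lowest of 38 other factors, relatives with at least 50 UMIs, the 3 most alike genes (at least 200 UMIs), promoter regions, and the distal region with the most counts of each gene, of which some are printed. A few genes that these rules name are not reported here. Other regions, Foxa3 and Cebpe were chosen after their values were seen. Alternatives numbered 20, with 2 added after seeing the data. Further software comprised matplotlib 3.10.9, igraph 0.11.9, pandas 2.3.3, scipy 1.17.1, numpy 2.4.6 and Python 3.11.15.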

Additional observations from a re-analysis of the deposited data

How the results depend on the processing

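Each genotype has 1 library, so no replicate could be left out. No paired analysis was possible because each genotype had 1 joint library. Of 166 medians of the factors or their regions recomputed under the alternatives, 157 stayed between the median lower and the median upper bound of the single members. These bounds are not an interval of the median. The others follow, and the cause was not tested. With median-of-ratios scaling, which removes the all-gene shift of 0.47 (0.44 in AT2-like nuclei), the library labelled CKO over control gave -0.016 in alveolar and -0.0305 in AT2-like nuclei, and transitional-like over AT2-like nuclei of the control library -0.18. Without the 20 most abundant genes the library ratio was 0.25 in alveolar and 0.21 in AT2-like nuclei. It was 0.65 in AT2-like nuclei without nuclei holding 2 or more leukocyte-marker UMIs (Lyz2 among them), and -0.12 in transitional-like nuclei thinned to 1000 UMIs. Alveolar over leukocyte nuclei of the library labelled CKO gave 1.12 without shallow clusters and 1.07 after thinning. Single factors whose interval excluded 0 turned sign as follows. In the library ratio with median-of-ratios scaling, Gata6 gave -0.016 in alveolar and -0.0305 in AT2-like nuclei, Klf5 -0.23, -0.25 and, in transitional-like nuclei, -0.0198, and Tfcp2l1 -0.23 and -0.0454. Without the 20 most abundant genes Klf5 gave -0.0156 in AT2-like nuclei. For AT1-like over AT2-like nuclei, thinning gave 0.14 for Cebpa and 0.0654 for Nkx2-1 in the control library and 0.0233 for Elf3 in the library labelled CKO, which was 0.0252 with no filter but 500 UMIs. Foxa2 regions within 10 kb gave -0.0488 in the library labelled CKO and -0.40 in the control library (0.28 and 0.21 within 50 kb). Ratios whose interval held 0 also changed sign, among them, for the library labelled CKO over control, Foxa1 (lowest -0.18) and Elf3 (lowest -0.42, in 4 of 16 alternatives) in alveolar nuclei, Foxa2 in transitional-like nuclei (6 of 12) and Klf5 in AT1-like nuclei (5 of 14). Of 308 counts past 2-fold, 42 moved by over 1.5 times. The 2 factors at least 2-fold higher in the library labelled CKO in AT2-like nuclei became 0 with median-of-ratios scaling and without the 20 most abundant genes, and 1 after thinning. The 2 in AT1-like nuclei became 0 with no mitochondrial limit or at a minimum of 100 UMIs per gene, and 1 in 4 other settings. At the minimum of 100 UMIs, Cebpa (43 and 4 UMIs) and Cebpd (87 and 11 UMIs) were no longer among the genes counted. The 4 in alveolar over leukocyte nuclei of the library labelled CKO became 2 in 3 settings and ranged from 2 to 6, and the 2 of the control library ranged from 1 to 4. Sox9 (17 UMIs in kept nuclei) and the control leukocytes (103 nuclei) rest on few counts.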
